A study of Homo sapiens with 36 samples.

Results

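The genes examined were 6 prostate lineage and androgen-regulated genes, KLK2, KLK3, TMPRSS2, SLC45A3, FOLH1 and FKBP5, of 20163 protein-coding genes in all. They were chosen by name. For each, every peak and every differentially bound region between 10 kb upstream of the gene start and the gene end was collected (hg19, which is GRCh37). ChIP-seq had been done in DU145 cells, an androgen-independent prostate cancer line derived from a brain metastasis. Cells carried a lentiviral control shRNA (shCTR) or an shRNA against the long isoform of PHF19 (shPHF19L#4), and both were selected with puromycin. PHF19, EZH2 and SUZ12 peak lists were used for shCTR cells, and H3K27me3 and MTF2 peak lists for both conditions, with 2 replicates in each group and 14 lists in all. In the ChIP-seq data used here the PHF19L depletion rests on 1 shRNA in 1 cell line. The paper also reports ChIP-qPCR with another shRNA at a subset of PHF19L targets. In addition, 5 tables of differential binding made with DiffBind were used. No expression value was used, so whether the 6 genes are silent in these cells was not tested here.

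H3K27me3 is the histone mark set by Polycomb repressive complex 2 (PRC2), in which EZH2 is the methyltransferase and SUZ12 a core subunit. PHF19 and MTF2 are Polycomb-like accessory proteins that help to bring PRC2 to CpG-rich DNA. The mark is typical of developmental and lineage genes that a cell does not use. In luminal prostate epithelium androgens induce KLK3, which encodes prostate-specific antigen, its neighbour KLK2, and the membrane protease gene TMPRSS2. SLC45A3 encodes the transporter prostein and FOLH1 the prostate-specific membrane antigen. FKBP5 encodes a co-chaperone of HSP90 and also responds to glucocorticoids, in many tissues besides the prostate.

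The 6 genes fell into 3 patterns. TMPRSS2 carried H3K27me3, EZH2, PHF19 and MTF2 in both replicates, all over 1 internal promoter. KLK2 carried H3K27me3 in both replicates, and KLK3 in replicate 1 of shCTR cells and in both shPHF19L#4 replicates. Neither had an EZH2, PHF19 or SUZ12 peak in the lists used, which were of shCTR cells only. SLC45A3, FOLH1 and FKBP5 carried no H3K27me3 in any list. A region called in both replicates, meaning merged peaks of both lists that overlap by at least 1 bp, was found for H3K27me3 in shCTR cells at 2 of the 6 genes (KLK2 and TMPRSS2), where the share of all protein-coding genes was 14.7%. In shPHF19L#4 cells it was found at 3 genes, KLK3 in addition, beside 21.1% of all genes. EZH2 regions in both replicates lay at 1 gene, TMPRSS2, beside 2.40% of all genes. The same gene was the only 1 of the 6 with a PHF19 region in both replicates (3.59% of all genes), with an MTF2 region in shCTR cells (5.44%) and with an MTF2 region in shPHF19L#4 cells (10.6%). A SUZ12 region in both replicates was found at 0 of the 6 and at 0.263% of all genes. With so few members these counts are a description and were not tested. In addition, intervals differ in length, from 15.9 kb for KLK3 to 165 kb for FKBP5, beside a median of 37.2 kb over all genes.

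**Figure D1:**
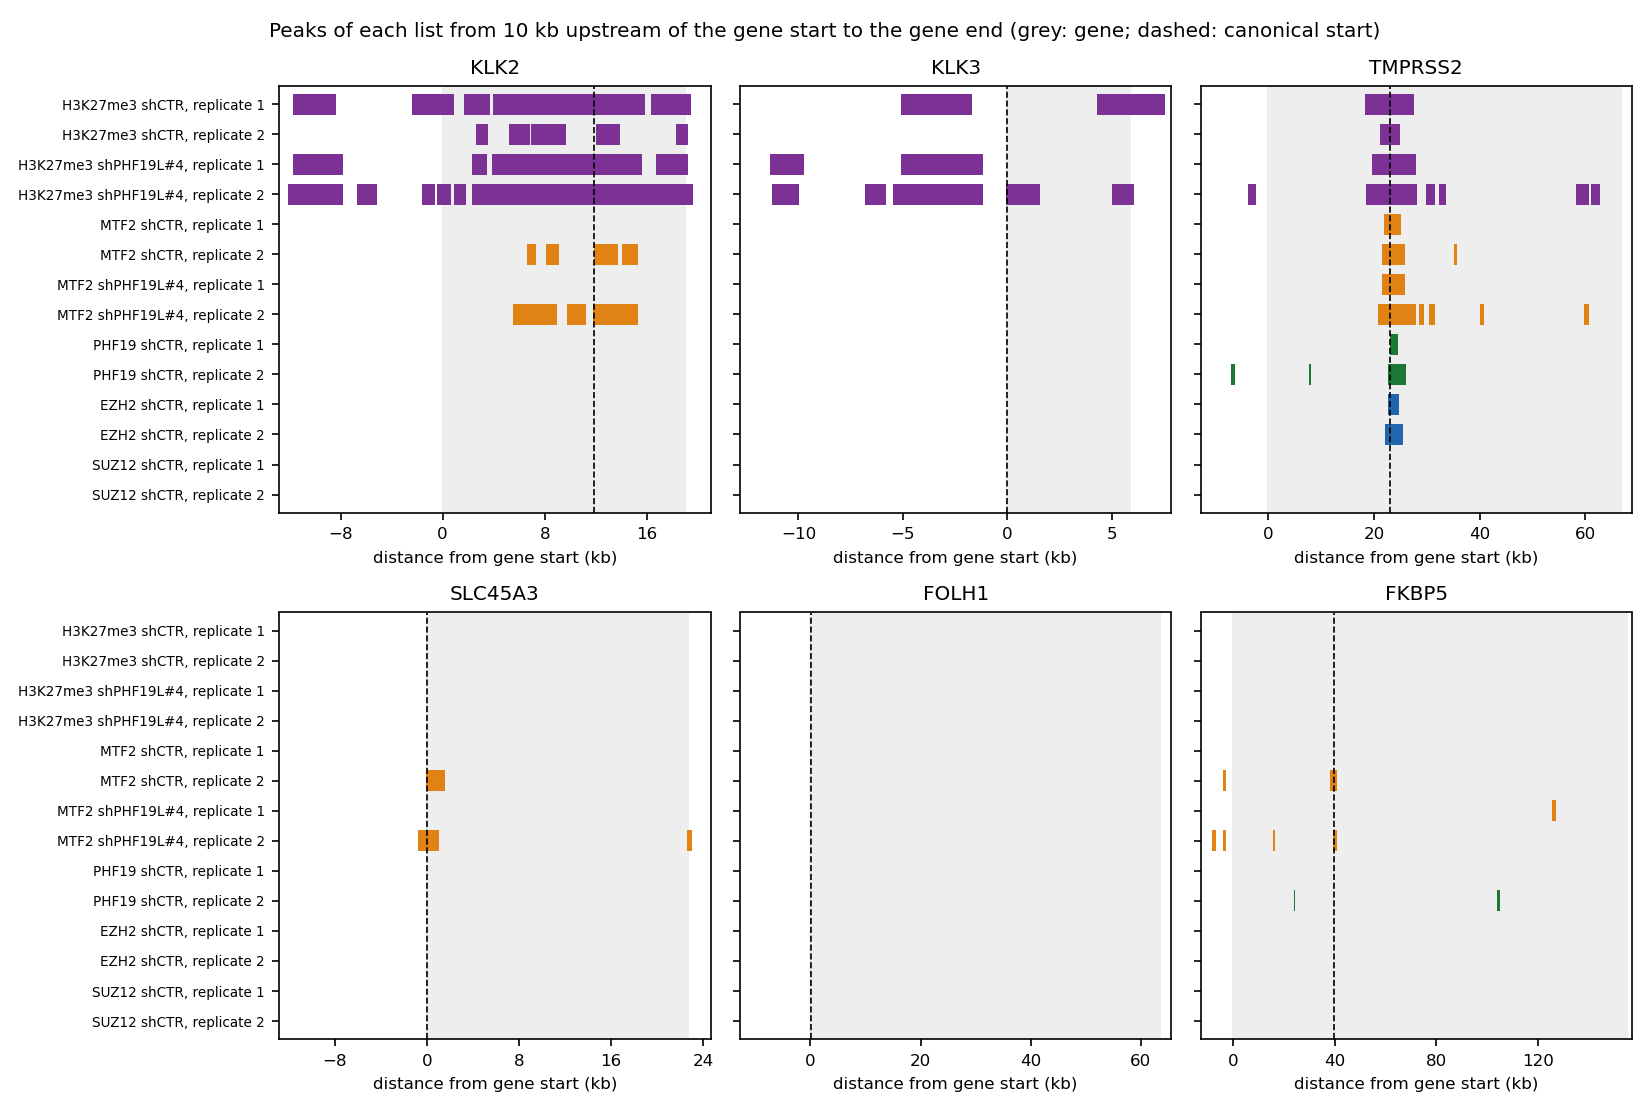
Peaks of the 14 lists along each of the 6 genes. The x axis is the distance from the gene start in kb, in the direction of transcription, each row is 1 list, the grey field is the gene and the dashed line the start of its canonical transcript. TMPRSS2 has peaks over the dashed line in 12 lists, and FOLH1 has no peak.

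The single lists differed strongly in how much they called. H3K27me3 peaks lay at 3 of the 6 genes in replicate 1 of shCTR cells (22.5% of all genes) and at 2 in replicate 2 (16.7%). In shPHF19L#4 cells they lay at 3 genes in replicate 1 (21.9%) and at the same number in replicate 2 (32.8%). MTF2 peaks lay at 1 gene in replicate 1 of shCTR cells (6.44%) but at 4 in replicate 2, in which 53.1% of all genes had a peak. In shPHF19L#4 cells the corresponding numbers were 2 genes (11.5%) and 4 genes (54.2%). PHF19 peaks lay at 1 gene in replicate 1 (4.09%) and at 2 in replicate 2 (26.1%). EZH2 peaks lay at 1 gene in replicate 1 (3.56%) and at 1 in replicate 2 (5.47%), and SUZ12 peaks at 0 in both (1.22% and 1.05%). Peaks that were seen in replicate 2 of MTF2 or PHF19 alone are therefore given below as such.

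TMPRSS2 (chr21:42836227-42903043, minus strand, GRCh37) is annotated with several starts. Its outermost start had no peak over it in any list. The canonical transcript starts 22.96 kb further into the gene, and 12 of the 14 lists had a peak over that position, all lists but those of SUZ12. The H3K27me3 region of both shCTR replicates was chr21:42875553-42882299, 6.75 kb in width. It ran from −2.21 to 4.53 kb relative to the canonical start, and so covered exon 1 of the canonical transcript and reached into intron 1. The EZH2 region was 3.31 kb wide, the PHF19 region 3.43 kb and the MTF2 region of shCTR cells 4.37 kb. These widths are those of the replicate 2 peaks. The replicate 1 peaks were 2.23 kb, 1.52 kb and 3.29 kb wide, in the same order. A stretch of 2.77 kb, chr21:42877626-42880398, was common to the 6 regions over this start, those of shPHF19L#4 cells included. Most of it lay downstream of the start. Since a region merges the peaks of both replicates, not every list covered the whole stretch. The PHF19 peak of replicate 1 covered chr21:42878573-42880090, 1.52 kb.

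Peak height at TMPRSS2 was judged within each list, since the score of MACS, the peak caller, is not comparable between lists. The H3K27me3 peak over the canonical start had a score of 1077 in replicate 1 of shCTR cells, higher than 98.0% of the list, and of 451 in replicate 2, higher than 93.3%. The EZH2 peak had a score of 224.5 in replicate 1 (above 90.5% of the list) and of 463 in replicate 2 (above 85.9%). The PHF19 list of replicate 1 gives tags in place of a score, and its peak held 67 tags, above 60.8% of the list. In replicate 2 the PHF19 peak had a score of 538, above 97%. The MTF2 peak of shCTR cells had a score of 3100 in replicate 2, above 99.1% of the list, and replicate 1 of MTF2 carries no score. Thus the H3K27me3 peaks of both replicates and the MTF2 peak of replicate 2 ranked near the top of their lists. The PHF19 ranks rest on different measures and on lists of 1072 and 14218 peaks, so they cannot be compared with each other. Regions of all 4 kinds in both replicates of shCTR cells were found in the intervals of 358 protein-coding genes, 1.78% of all.

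**Figure D2:**
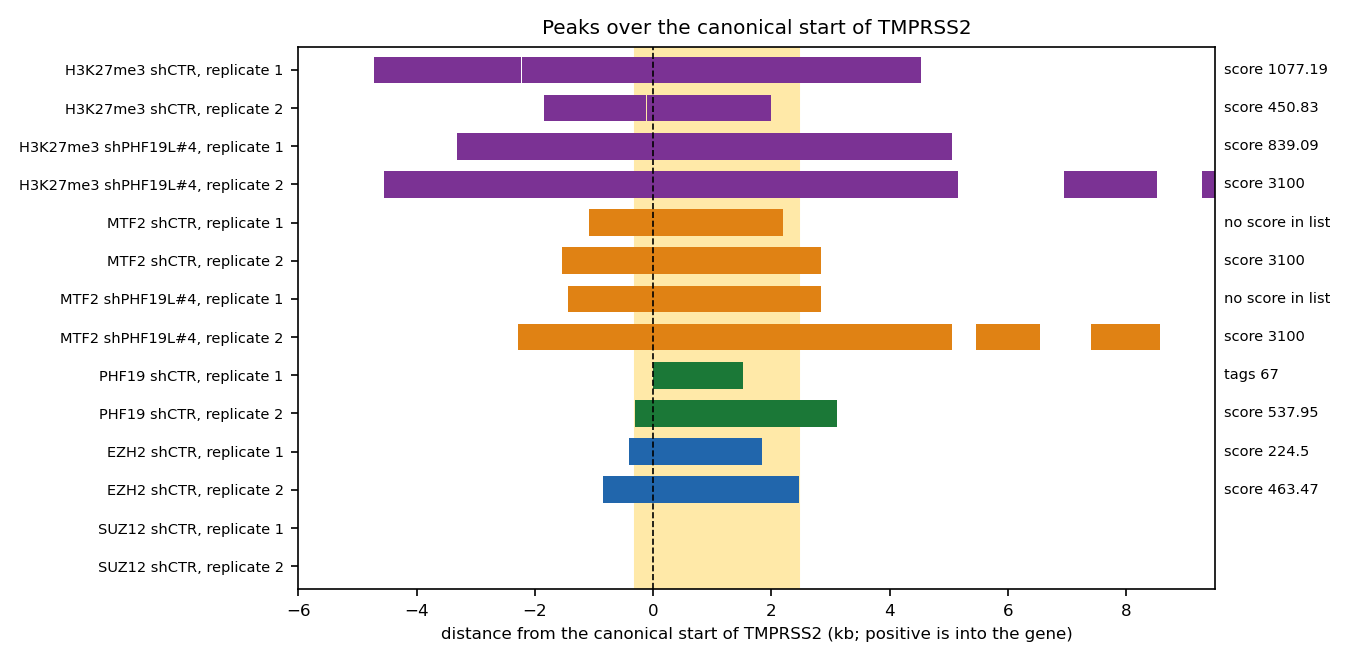
Peaks around the canonical start of TMPRSS2. The x axis is the distance from that start in kb, each row is 1 list, the value of the peak over the start stands at the right, and the yellow field marks the 2.77 kb common to the 6 regions called in both replicates. Neither SUZ12 list has a peak here.

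Although SUZ12 peaks were not called at TMPRSS2 in shCTR cells, the gene was listed in the differential binding table of SUZ12. It was the only 1 of the 6 genes in the tables of PHF19 (5.0% of all genes), EZH2 (10.3%), SUZ12 (2.64%) and MTF2 (9.72%), and 0 of the 6 were in that of H3K27me3 (4.02%). The EZH2 row covered chr21:42877366-42881450. Its mean read concentration on the log2 scale, the authors' mean over both replicates, was 7.52 in shCTR and 8.76 in shPHF19L#4 cells, a ratio of 2.36. For SUZ12 the authors' means were 6.43 and 7.22, a ratio of 1.73. For MTF2 they were 9.12 and 10.15, a ratio of 2.04. For PHF19 the table compares shCTR cells with input, and the means were 6.86 in the PHF19 sample and 5.67 in the input, a ratio of 2.28. Which input libraries were used there is not stated. The log2 difference of input and PHF19 sample was −1.19, less far from 0 than the median of −1.58 over the table. EZH2, SUZ12 and MTF2 thus all had the higher mean in PHF19L-depleted cells at this promoter. How these means were scaled, by spike-in or by library size, is not stated, so the ratios hold on the authors' scale only. The same direction was held by 2407 of 2408 rows of the EZH2 table, 508 of 508 of the SUZ12 table, 2539 of 2546 of the MTF2 table and 1048 of 1049 of the H3K27me3 table, with median ratios of 2.23, 1.95, 1.83 and 2.19. The TMPRSS2 difference was larger than that of 60.9% of EZH2 rows, 19.3% of SUZ12 rows and 76.9% of MTF2 rows. The tables list only rows with a P value under the authors' threshold of 0.05, and that of PHF19 only those that also had an FDR under 0.2, so a gene that is not listed is not shown to be stable. They give no value per replicate, so no spread can be set beside the ratios.

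KLK2 (chr19:51364824-51383823, plus strand) was the member with the widest H3K27me3. In shCTR cells peaks covered 21.5 kb of its 29 kb interval in replicate 1 (74.3%) and 7.93 kb in replicate 2 (27.3%). These shares were higher than in 98.9% and 97.9% of all protein-coding genes. The largest region of both replicates, chr19:51368790-51380659, was 11.9 kb wide and spanned the canonical start, which lies 11.9 kb inside the annotated gene. Its bounds are those of the replicate 1 peak, which had a score of 657, above 94.2% of that list. Inside the region, the replicate 2 peaks were 1.61 kb, 2.735 kb and 1.88 kb wide. In replicate 2 no peak lay over the canonical start itself, and the nearest began 0.159 kb behind it. No PHF19, EZH2 or SUZ12 peak was found in any list, and KLK2 had no row in a differential binding table. MTF2 was called in replicate 2 alone, with 4 peaks in shCTR cells of which the highest, over the canonical start, had a score of 169, above 84.6% of its list. In shPHF19L#4 cells there were 3 peaks, and the peak over the start had a score of 862, above 91.5%. H3K27me3 without these PRC2 peaks was not unusual in these lists. Of the 2970 genes with an H3K27me3 region in both shCTR replicates, 27.9% had no EZH2, PHF19 or SUZ12 peak in either replicate.

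KLK3 (chr19:51358171-51364020, plus strand) lies directly upstream of KLK2, and their intervals overlap. In shCTR cells H3K27me3 was called in replicate 1 alone, as 2 peaks of 3.38 kb and 3.28 kb. The former lay upstream, from −5.09 to −1.71 kb relative to the start, at chr19:51353085-51356463, with a score of 173. The latter had a score of 54.7, above only 6.81% of the list, and ran from the end of KLK3 into KLK2. Replicate 2 of shCTR cells had no peak. In shPHF19L#4 cells both replicates had the upstream peak, as a region at chr19:51352717-51357005. This region also lies in the interval of KLK2. A further region of both replicates, 1.61 kb wide, lay at the upstream end of the interval and within that of KLK15. A peak over the KLK3 start was found in 1 list, replicate 2 of shPHF19L#4 cells, with a score of 155. No MTF2, PHF19, EZH2 or SUZ12 peak was found at KLK3.

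The promoters of KLK3 and KLK2 are shown as those of the members with H3K27me3 but no EZH2 or PHF19 peak in the interval. H3K27me3 peaks lay over the KLK2 promoter in replicate 1 of shCTR cells and in both shPHF19L#4 replicates, and over the KLK3 promoter in replicate 2 of shPHF19L#4 cells alone, a condition whose EZH2 and PHF19 lists were not used. They are 300 bases long, of which the last 50 follow the RefSeq start (table of GRCh38.p14), and matched 1 place each in GRCh37, chr19:51357921-51358220 and chr19:51376445-51376744, plus strand. Capitals mark CG, AGAACA and TGTTCT, of which the last 2 are the core of the steroid hormone response element in either orientation.
KLK3: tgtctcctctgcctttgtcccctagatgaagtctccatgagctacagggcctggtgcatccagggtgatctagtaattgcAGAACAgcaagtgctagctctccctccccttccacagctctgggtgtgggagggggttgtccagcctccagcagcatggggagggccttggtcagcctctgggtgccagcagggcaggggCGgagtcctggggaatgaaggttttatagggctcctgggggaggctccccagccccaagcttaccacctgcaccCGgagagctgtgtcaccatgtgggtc
KLK2: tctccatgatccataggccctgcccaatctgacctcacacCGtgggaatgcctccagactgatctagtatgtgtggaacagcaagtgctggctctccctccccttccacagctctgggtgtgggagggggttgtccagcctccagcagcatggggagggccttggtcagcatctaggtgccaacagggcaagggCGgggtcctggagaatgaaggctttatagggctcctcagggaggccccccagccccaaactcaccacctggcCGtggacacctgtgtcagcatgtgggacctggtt
The KLK3 promoter held 1 AGAACA, 170 bases before the start, and 2 CG. The KLK2 promoter held no AGAACA or TGTTCT, and 3 CG. Only these exact words were searched. The KLK2 promoter does hold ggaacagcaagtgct, which differs in 1 base from AGAACAgcaagtgct in that of KLK3. The 2 promoters shared a run of 80 identical bases that begins 154 bases before the KLK3 start. Of all 35116 promoters in the table, 14.8% held AGAACA or TGTTCT, and the median promoter held 14 CG. RefSeq promoters were found for 4 of the 6 genes, and TMPRSS2 and FOLH1 had no entry. A wider count in the genome gave 11 CpG within 500 bases to each side of the KLK2 start and 12 at KLK3. The median over all genes was 66, and TMPRSS2 had 92.

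KLK2 and KLK3 belong to a cluster of 15 kallikrein genes that spans 265 kb of chromosome 19. H3K27me3 regions in both shCTR replicates lay in the intervals of 5 of these genes, KLK2, KLK4, KLK7, KLK9 and KLK10, which is 33.3% beside the 14.7% of all genes. In shPHF19L#4 cells there were 11 (73.3%, beside 21.1% of all genes), with KLK1, KLK3, KLK8, KLK13, KLK14 and KLK15 in addition. Intervals of neighbouring genes overlap, so 1 region can count for 2 genes. The KLK9 region of shCTR cells is that of KLK10, and the KLK3 regions of shPHF19L#4 cells also lie in the intervals of KLK2 or KLK15. The number of genes differed in replicate 2, with 5 in shCTR cells, beside 16.7% of all genes, and 15 in shPHF19L#4 cells, beside 32.8%. Replicate 1 had 11 in both conditions, beside 22.5% of all genes in shCTR and 21.9% in shPHF19L#4 cells. These 11 were not the same genes, since KLK14 and KLK15 had a peak in replicate 1 of shPHF19L#4 cells only and 2 others in that of shCTR cells only. The H3K27me3 table had rows at KLK7, with authors' means of 5.67 in shCTR and 6.84 in shPHF19L#4 cells, and at KLK15, with 4.68 and 5.87. EZH2 was called in both replicates at 2 places in the cluster. They lie in the intervals of 3 of the 15 genes (20%, beside 2.40% of all genes). The place nearest to KLK2 lay 31.4 kb from its interval, upstream of KLK4, which encodes a kallikrein that is also androgen-regulated. The other covered the start of KLK10 and lies in the interval of KLK9 as well. It was also the only PHF19 region of both replicates in the cluster, at 2 genes (13.3%, beside 3.59% of all genes). KLK4 had a PHF19 peak in replicate 2 alone and a row in the PHF19 table, with authors' means of 6.05 in the PHF19 sample and 4.50 in the input. MTF2 regions of both replicates were found at the same 2 places in both conditions. They lay at 3 genes (20%), beside 5.44% of all genes in shCTR and 10.6% in shPHF19L#4 cells. At KLK10 the authors' EZH2 means were 6.99 in shCTR and 8.26 in shPHF19L#4 cells (log2), and the MTF2 means were 8.78 and 9.56. At KLK4 the EZH2 means were 6.20 and 7.10, and the MTF2 means 7.71 and 8.45. KLK7 also had an EZH2 row, with means of 3.92 and 4.96, but no EZH2 peak in either shCTR list. CpG density was 56.3 per kb in the EZH2 region of TMPRSS2, 58.9 in that of KLK10 and 30.9 in that of KLK4, beside a median of 58.3 over the 500 EZH2 regions. Among H3K27me3 regions of shCTR cells, with a median of 8.62, the 3 of KLK2 held 9.17 to 12.2 CpG per kb. The region of TMPRSS2 held 33.3, that of KLK10 46.6, and those of KLK4 23.3 and 18.2.

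**Figure D3:**
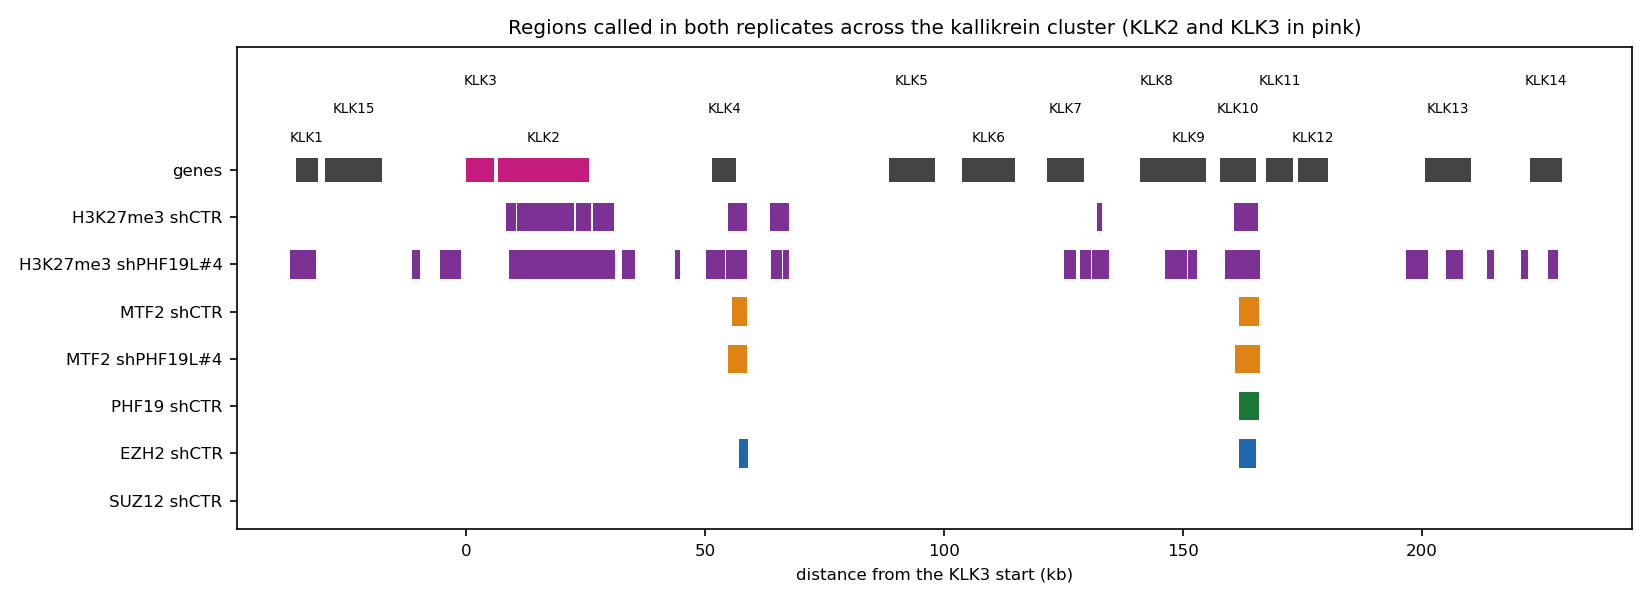
Regions called in both replicates across the kallikrein cluster. The x axis is the distance from the KLK3 start in kb, the top row shows the 15 genes, and each row below is 1 group. H3K27me3 of shCTR cells lies at KLK2, KLK4 and KLK10, among other places, EZH2 and MTF2 regions at KLK4 and KLK10, and the PHF19 region at KLK10.

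SLC45A3 (chr1:205626979-205649637, minus strand) had peaks in 2 lists, both of MTF2 replicate 2. A peak of 1.59 kb with a score of 145, above 81.9% of its list, lay over its start in shCTR cells. The peak over the start in shPHF19L#4 cells was 1.86 kb wide with a score of 110, above 61.1%, and a further peak with a score of 51.5 lay at the gene end. No H3K27me3, EZH2, PHF19 or SUZ12 peak was found. The nearest H3K27me3 region of both shCTR replicates was 65.6 kb away from the interval.

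FKBP5 (chr6:35541362-35696360, minus strand) had the longest interval, and still no H3K27me3, EZH2 or SUZ12 peak. Its MTF2 peaks came mostly from replicate 2, with 2 in shCTR and 4 in shPHF19L#4 cells. The peak over the canonical start, 39.7 kb inside the annotated gene, had a score of 60.1 in shCTR cells, above 30.5% of its list, and of 248 in shPHF19L#4 cells, above 80.6%. Replicate 1 of shPHF19L#4 cells had 1 peak, 85.9 kb behind the canonical start, which met no peak of replicate 2. PHF19 was called in replicate 2 alone, as 2 peaks inside the gene with scores of 69.7 and 54.8, above 62.4% and 26.8% of the list. The nearest H3K27me3 region of both shCTR replicates lay 47.5 kb from the interval.

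The promoters of SLC45A3 (chr1:205649588-205649887) and of the canonical FKBP5 transcript (chr6:35656643-35656942) are shown for comparison, since both are rich in CpG and had no H3K27me3. Both are on the minus strand of GRCh37, from the same RefSeq table, with the same motifs in capitals.
SLC45A3: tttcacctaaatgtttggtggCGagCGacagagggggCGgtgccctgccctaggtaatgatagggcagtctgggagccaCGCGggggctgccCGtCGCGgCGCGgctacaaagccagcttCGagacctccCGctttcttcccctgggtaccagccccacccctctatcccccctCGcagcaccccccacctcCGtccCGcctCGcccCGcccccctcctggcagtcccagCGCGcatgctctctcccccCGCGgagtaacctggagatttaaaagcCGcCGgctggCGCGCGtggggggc
FKBP5: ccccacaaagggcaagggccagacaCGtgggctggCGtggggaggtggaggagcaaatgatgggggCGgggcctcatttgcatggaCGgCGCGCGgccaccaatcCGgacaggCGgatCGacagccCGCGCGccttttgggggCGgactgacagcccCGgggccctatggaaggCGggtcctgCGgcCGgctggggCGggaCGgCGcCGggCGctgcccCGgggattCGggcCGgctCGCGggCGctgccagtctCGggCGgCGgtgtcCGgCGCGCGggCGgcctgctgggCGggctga
They held 26 and 38 CG, and no AGAACA or TGTTCT. FKBP5 has another RefSeq entry, at its outer start, which held 3 CG and 1 AGAACA and is not shown. Within 500 bases to each side of the start there were 101 CpG at SLC45A3 and 111 at FKBP5, more than at 82% and 88.5% of all genes. TMPRSS2, with PRC2 over its start, ranked above 74.7%. A CpG-rich start was thus shared by TMPRSS2, SLC45A3 and FKBP5, of which TMPRSS2 alone had H3K27me3.

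FOLH1 (chr11:49166644-49230190, minus strand) had no peak in any of the 14 lists and no row in any table. The nearest H3K27me3 region of both shCTR replicates was 1549 kb away. A measured property of this locus bears on the lists, which were made from reads that map to 1 place. Of all words of 36 bases in the FOLH1 interval, 43% occur elsewhere in the genome too, and of words of 50 bases 29.8%. In the other 5 intervals the share was 7.5% to 13.8% for 36 bases and 3.74% to 8.06% for 50 bases. The part of this in the lack of peaks was not tested. The start of FOLH1 had 57 CpG within 500 bases to each side, below the median gene.

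Between the conditions, the length covered by H3K27me3 peaks moved in opposite directions in the 2 replicates. At TMPRSS2 the covered length was 9.24 kb in shCTR and 8.37 kb in shPHF19L#4 cells in replicate 1, but 3.83 kb and 18.5 kb in replicate 2. At KLK2 it was 21.5 kb and 17.4 kb in replicate 1, and 7.93 kb and 23.6 kb in replicate 2. At KLK3 it was 4.96 kb and 4.18 kb in replicate 1, and 0 kb and 7.74 kb in replicate 2. All 3 genes therefore had a slightly shorter covered length upon PHF19L depletion in replicate 1 and a much longer one in replicate 2. The whole lists moved likewise. The length covered genome-wide in shPHF19L#4 relative to shCTR cells was 0.895 in replicate 1 and 5.24 in replicate 2, and the ratio at TMPRSS2 was 0.906 and 4.83. Ratios at KLK2 were 0.807 and 2.97. The covered length in these unscaled lists thus gave no common direction for H3K27me3 at these genes. Covered length is not signal strength, and the H3K27me3 table, in which nearly all rows were higher in shPHF19L#4 cells, has no row at the 6 genes.

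MTF2 at TMPRSS2 covered more in shPHF19L#4 cells in both replicates, 3.29 kb against 4.28 kb in replicate 1 and 4.97 kb against 11.4 kb in replicate 2. The ratios were 1.30 and 2.29, and those of the whole lists 1.83 and 1.27. The peak over the canonical start itself was 4.37 kb wide in shCTR and 7.33 kb in shPHF19L#4 cells in replicate 2. In replicate 2, MTF2 also covered more at KLK2, with 4.76 kb and 8.45 kb, at SLC45A3, with 1.59 kb and 1.95 kb, and at FKBP5, with 3.98 kb and 5.16 kb. The ratios at SLC45A3 and FKBP5 were 1.22 and 1.30, near that of the whole lists. The FKBP5 peak over the canonical start was narrower in shPHF19L#4 cells, 1.59 kb against 2.86 kb, and 2 of the 4 peaks there also lie in the interval of the neighbouring ARMC12. Replicate 1 had no MTF2 peak at KLK2 or SLC45A3 in either condition. With 2 replicates against 2, an exact permutation test cannot give a two-sided p below 0.333, and none was run. Peak lists carry no scaling by spike-in, and the number of reads behind each list is unknown.

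**Figure D4:**
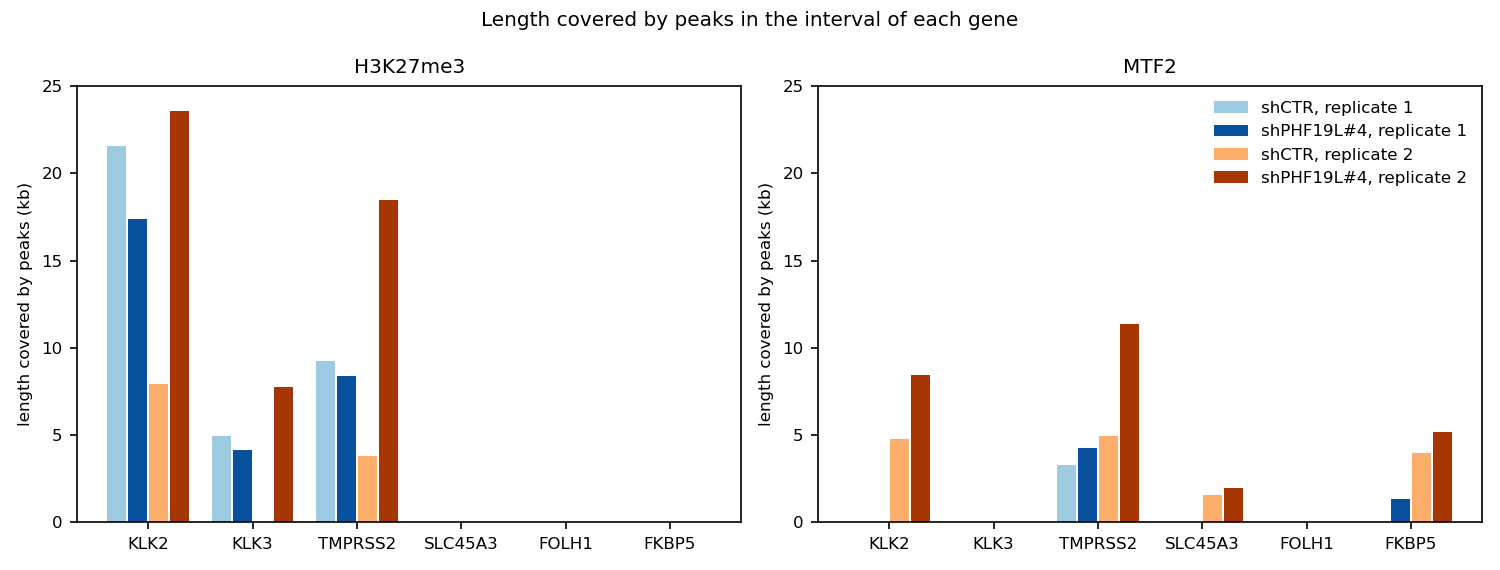
Length covered by H3K27me3 peaks (left) and MTF2 peaks (right) in the interval of each gene, in kb. Each bar is 1 list, light for shCTR and dark for shPHF19L#4 cells, blue for replicate 1 and orange for replicate 2. H3K27me3 at TMPRSS2 is 9.24 and 8.37 kb in replicate 1 but 3.83 and 18.5 kb in replicate 2.

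A list of 25 other luminal and androgen-regulated genes was examined in the same way. H3K27me3 regions of both shCTR replicates lay at 3 of them (12%), KLK4, TRPM8 and TMEFF2, and in shPHF19L#4 cells at 5 (20%), KLK15 and HPGD in addition. These shares were close to those of all genes. MTF2 was found in both replicates at KLK4 and HPGD in shCTR cells (8%, beside 5.44% of all genes). It was found at 4 genes in shPHF19L#4 cells, STEAP4 and TMEFF2 in addition (16%, beside 10.6%). EZH2 was found in both replicates at KLK4 alone (4%, beside 2.40%), and PHF19 and SUZ12 at 0 of the 25, beside 3.59% and 0.263% of all genes. TMEFF2 is a transmembrane protein with prostate and brain expression, and HPGD the enzyme that inactivates prostaglandins. Both had rows in the PHF19, EZH2 and MTF2 tables, as had KLK4. Rows thus lay at 3 of the 25 genes for PHF19 (12%, beside 5.0% of all genes) and at 3 for EZH2 (12%, beside 10.3%). For MTF2 they lay at 4 genes, STEAP4 in addition (16%, beside 9.72%). The SUZ12 table had rows at 0 of the 25 (2.64% of all genes). That of H3K27me3 had a row at 1, KLK15 (4%, beside 4.02%). At TMEFF2 the authors' EZH2 means were 5.66 in shCTR and 6.85 in shPHF19L#4 cells, and at HPGD 4.77 and 6.16. All PHF19, EZH2 and MTF2 rows of the 25 genes lay over the canonical start, and the H3K27me3 row of KLK15 did not. Neither TMEFF2 nor HPGD had an EZH2 peak in a shCTR list, and their PHF19 peaks were in replicate 2 alone.

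**Figure D5:**
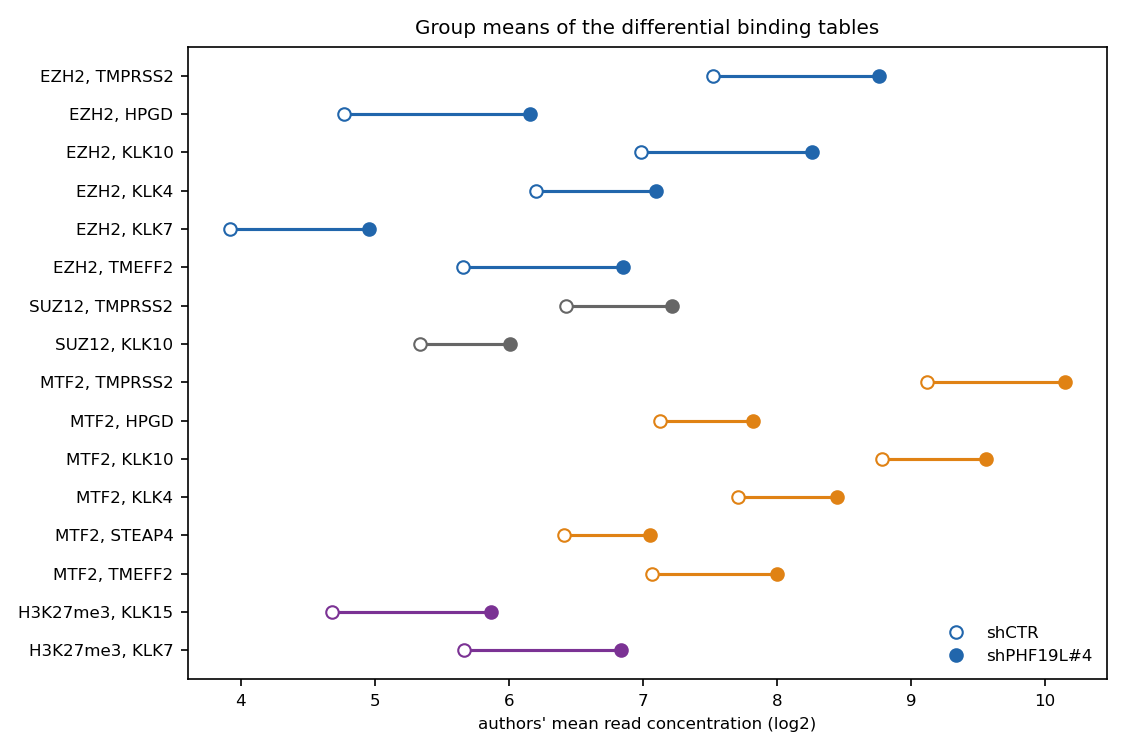
Authors' mean read concentrations (log2, x axis) of the rows at TMPRSS2, at kallikrein genes and at other luminal genes, by protein. Open circles are shCTR and filled circles shPHF19L#4 cells, each a mean over both replicates with no spread available. All rows shown lie higher in shPHF19L#4 cells, and TMPRSS2 has the highest means for EZH2 (8.76), SUZ12 (7.22) and MTF2 (10.15).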

How the data were processed

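Per the study's methods, the authors mapped reads with Bowtie to hg19, or to hg19 plus the fly genome, and kept reads with 1 place. Peaks came from MACS, run by replicate. Each score is the MACS value that the authors deposited, with tags instead for PHF19 replicate 1 and positions alone for MTF2 replicate 1. The log2 values are mean concentrations per group that the authors made with DiffBind, and their fold, P value and FDR columns were not used. Genes are those of GENCODE release 44 mapped to GRCh37, and the canonical transcript is Ensembl's. Overlaps of at least 1 bp were counted with Python 3.11.15 and numpy 2.4.6, repeated words with numba 0.67.0, both checked on simulated data. Figures were drawn with matplotlib 3.10.9. Besides the 6 genes, lists of luminal, kallikrein, basal, housekeeping and Polycomb genes were counted. Their genes were to be named where they had a region in both replicates or a DiffBind row. Promoters were to be shown for KLK3 and for the gene with most lists over its start, and KLK2, SLC45A3 and FKBP5 were added after their values were seen. The genes and lists were chosen with earlier results of these data known. Inputs, RNA-seq and ChIP lists of PHF19, EZH2 and SUZ12 in shPHF19L#4 cells were not analysed here. Depth per library is unknown.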

Additional observations from a re-analysis of the deposited data

How the results depend on the processing

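Counts of the 6 genes were recomputed with other intervals, overlaps, scores and replicates. The share of all genes was not counted again for other intervals, overlaps or scores, or for regions of either replicate. The shares given above therefore do not apply to those counts. The window of 2.5 kb to each side of the gene start lowered H3K27me3 from 2 genes to 1 in shCTR cells and from 3 to 2 in shPHF19L#4 cells. It lowered PHF19, EZH2 and MTF2 in either condition from 1 to 0, and the DiffBind tables of PHF19, EZH2, SUZ12 and MTF2 from 1 to 0, since the regions of TMPRSS2 lie at its internal start. The same window around the canonical start, which was chosen after the data were examined, gave the reported count for every group and table. Regions called in either replicate raised MTF2 from 1 gene to 4 in both conditions, PHF19 from 1 to 2 and H3K27me3 in shCTR cells from 2 to 3. MTF2 peaks of replicate 2 alone lay at 53.1% of all genes in shCTR and 54.2% in shPHF19L#4 cells. With 1 replicate left out, MTF2 in shCTR cells ranged from 1 to 4 genes, MTF2 in shPHF19L#4 cells from 2 to 4 and PHF19 from 1 to 2, with the higher value each time without replicate 1. H3K27me3 in shCTR cells ranged from 2 to 3, with the higher value without replicate 2. For these counts the shares of all genes are those of the single lists given above. An upstream reach of 2.5 kb, an overlap of at least 50% of the region, and 10 kb upstream of the canonical start (also added later) left each count as it was. A score of at least 100 left the counts of H3K27me3, EZH2 and SUZ12 as they were. It was not run for the DiffBind tables, and for MTF2 and PHF19 it could act on replicate 2 only, since their replicate 1 lists hold no score. The reported counts come from no test, and no paired test was run. Covered lengths are compared within each replicate in the text, and the DiffBind tables hold no value per replicate. No read totals came with the lists, so depth cannot be set beside a missing peak, and KLK2 and KLK3 share peaks.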

Other observations

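Lists of other genes were counted in the same intervals. Of 8 Polycomb reference genes, 5 (PAX6, WT1, LHX2, NEUROG2 and GATA6) had an H3K27me3 region in both replicates of either condition, 4 had a PHF19 region and 3 an EZH2 region in shCTR cells. LHX2, a LIM homeobox gene, was the only 1 of them with a SUZ12 region in both replicates. For H3K27me3 the shares of all genes were 14.7% in shCTR and 21.1% in shPHF19L#4 cells. They were 3.59% for PHF19, 2.40% for EZH2 and 0.263% for SUZ12. NEUROG2, a proneural transcription factor gene, had peaks over its start in 12 lists, the same number as TMPRSS2. Its authors' EZH2 means were 7.47 in shCTR and 8.44 in shPHF19L#4 cells (log2), and its MTF2 means 9.15 and 9.89, beside 9.12 and 10.15 at TMPRSS2.

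None of 10 basal prostate epithelial genes had a region in both replicates of any group or a DiffBind row. Shares of all genes ranged from 0.263% (SUZ12) to 21.1% (H3K27me3 in shPHF19L#4 cells) for such regions, and from 2.64% to 10.3% for rows. None of 8 housekeeping genes had an H3K27me3, EZH2 or SUZ12 peak in any list. The shares of all genes in these single lists ranged from 1.05% to 32.8%. With so few genes these counts are a description and were not tested. MTF2 peaks in replicate 2 were found at 8 of the 10 basal genes and at 2 of the 8 housekeeping genes in shCTR cells, where 53.1% of all genes had one.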
